A study of Mus musculus with 4 samples.

Results

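The genes described here are 8 that set the shape of the cardiac action potential or pass it from cell to cell, out of the 21885 genes of the mouse reference: Kcnip2, Kcnd2, Kcnj2, Kcnq1, Kcnh2, Kcna5, Kcnv2 and Gja1. They were chosen by symbol, with earlier results of these data known, and all 8 were found in the count tables. Their transcripts were counted as unique molecular identifiers (UMIs) on Visium arrays, which capture polyadenylated RNA on a grid of spots that each cover several cells. Each array held a section, 10 µm thick, of the heart of a Collagen1α1-GFP mouse aged 8 to 12 weeks, in which a collagen promoter drives the reporter in fibroblasts. The groups were 1 healthy control heart, 1 heart at 3 days post-infarction (dpi) and 2 hearts at 5 dpi, 1 labelled female (5 dpi-F) and 1 labelled male (5 dpi-M), with the infarcts made by permanent ligation of the left anterior descending coronary artery. All 4 hearts carried the reporter, and no sham-operated heart was analysed here. The question asked of these sections is where, and in which proportion to the muscle that is left, the channel transcripts are found after infarction.

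The working heart muscle cell fires when sodium and calcium channels open, and it returns to rest when potassium channels carry current out of the cell. In the mouse ventricle the fast transient outward current, carried by Kv4 channels with the accessory subunit KChIP2, dominates early repolarization, while Kv1.5 carries a slower component, KCNQ1 and hERG carry delayed rectifier currents that weigh more in large mammals, and Kir2.1 holds the resting potential. Connexin 43 forms the gap junctions through which the impulse spreads, and the downregulation of the transient outward current and the rearrangement of connexin 43 are textbook features of diseased ventricular muscle.

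After filtering, 1146 control spots, 1741 spots at 3 dpi, 1535 in 5 dpi-F and 1423 in 5 dpi-M remained, with 3742105 to 9540940 UMIs outside mitochondrially encoded genes. Mitochondrially encoded UMIs made up 40.1% of all UMIs in the control and 13.3% to 21.4% in the infarcted sections, so levels are given as CPM, the count scaled to a fixed total of the other UMIs. 5 dpi-F and 5 dpi-M are named by these labels only, because 4 Y-linked genes go against the labels, with 704 UMIs in the first and 1 in the second. These genes gave 0 in the control and at 3 dpi, so 5 dpi-F is the section that differs from the control in them. The part of this in the members' values was not tested. Muscle content was measured with 12 cardiomyocyte genes (Myh6, Tnnt2, Tnni3, Actc1, Myl2, Myl3, Pln, Mb, Ckm, Tcap, Ryr2 and Ttn), which made up 10.1% of non-mitochondrial UMIs in the control, 4.53% at 3 dpi, 1.98% in 5 dpi-F and 3.71% in 5 dpi-M. A member is therefore given both as CPM and as UMIs per 10000 UMIs of these 12 genes. A spot mixes cells, so fewer cardiomyocytes and less RNA per cardiomyocyte cannot be told apart in either value. Of the atrial markers Sln, Myl7 and Myl4, Sln was at 0 in all 4 sections. Their summed level was at most 14.8 CPM in a whole section and 26.8 CPM in any part described below. At these low levels the markers gave no sign of atrial muscle.

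The sequences upstream of the genes are shown for the pair encoding the transient outward channel, whose transcripts were lower in BZ2, the tissue next to the infarct, in CPM but not called per unit of muscle RNA, and for connexin 43, which was not called lower there on either scale. Promoters were held for 6 of the 8 members in the RefSeq table used (GRCm38.p6), and the 250 bases before the gene start are printed, at chr19:45816064-45816313 (minus strand), chr6:21215096-21215345 (plus strand) and chr10:56377050-56377299 (plus strand). Capitals mark a GC box (GGGCGG) in the first pair and an AP-1 motif (TGANTCA) in the last, searched on both strands.
Kcnip2: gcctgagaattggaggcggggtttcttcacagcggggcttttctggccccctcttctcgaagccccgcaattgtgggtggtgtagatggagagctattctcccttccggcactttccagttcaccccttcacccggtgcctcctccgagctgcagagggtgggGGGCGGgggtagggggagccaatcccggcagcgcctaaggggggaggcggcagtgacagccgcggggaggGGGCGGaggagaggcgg
Kcnd2: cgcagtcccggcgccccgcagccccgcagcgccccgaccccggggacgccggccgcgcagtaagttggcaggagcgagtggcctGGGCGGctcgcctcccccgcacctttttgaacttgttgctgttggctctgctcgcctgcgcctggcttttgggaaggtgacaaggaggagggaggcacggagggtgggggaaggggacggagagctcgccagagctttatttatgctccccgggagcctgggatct
Gja1: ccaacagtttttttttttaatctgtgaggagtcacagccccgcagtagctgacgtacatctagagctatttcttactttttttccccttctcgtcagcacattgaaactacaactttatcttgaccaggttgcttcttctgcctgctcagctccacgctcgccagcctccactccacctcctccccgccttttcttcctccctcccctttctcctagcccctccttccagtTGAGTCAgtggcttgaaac
The Kcnip2 window held 2 GC boxes and the Kcnd2 window 1, while 32.7% of 32851 promoter windows of this length held at least 1. The Gja1 window held no GC box and 1 AP-1 motif, which 6.75% of windows held, and no base was shared between motifs. GC content was 66.8% for Kcnip2, 68.8% for Kcnd2 and 50% for Gja1. Of the other members with a window, Kcnj2 held 2 GC boxes, Kcnh2 3 and Kcna5 none, and a TATA box (TATAAA), present in 12.4% of windows, was found in none of the 6. These matches are descriptions of the letters only.

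Across whole sections, the transient outward pair was the furthest below the control. Kcnip2, which encodes the KChIP2 subunit that brings Kv4 channels to the membrane, gave 144 CPM in the control section, 29.0 at 3 dpi, 7.65 in 5 dpi-F and 22.2 in 5 dpi-M. The control stood 4.96-fold above the 3 dpi section (95% interval for counting error only, 4.26 to 5.80), which was the nearest, and 18.8-fold above 5 dpi-F (14.7 to 24.4). Kcnd2, the pore-forming Kv4.2 channel, gave 15.0 CPM in the control section, 7.05 at 3 dpi, 2.41 in 5 dpi-F and 4.33 in 5 dpi-M, a 2.12-fold gap to the nearest (1.45 to 3.11). These 2 members were at least 2-fold lower than the control in every infarcted section, as were 5.19% of the 9304 genes at 10 CPM or more. With 1 control heart and 1 heart at 3 dpi these gaps were not tested, and the intervals leave out the spread between hearts.

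The other members were nearer to the control or overlapped it. Kcnj2, the Kir2.1 inward rectifier, was at 10.4 CPM in the control against 6.09, 4.09 and 4.33 in the 3 infarcted sections, in the order above. Kcnh2, the mouse hERG channel, was at 48.4 CPM against 31.4, 13.5 and 27.4, and Kcna5, the Kv1.5 channel, at 17.6 against 10.0, 6.92 and 12.3. For these 3 genes the control was the highest section, by 1.71-, 1.54- and 1.44-fold over the nearest. Kcnq1, the pore of the slow delayed rectifier, was at 42.0 CPM in the control against 42.3, 21.6 and 33.8, and Gja1 at 207 against 218, 123 and 144, so for both the control lay inside the range of the infarcted sections. Kcnv2, a silent modifier of Kv2 channels, gave 4, 4, 1 and 0 UMIs and could not be compared. No member was 2-fold higher than the control in every infarcted section, as 24.6% of the genes were.

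Per 10000 cardiomyocyte UMIs the order of the members was different. Kcnip2 was at 14.2 in the control, 6.41 at 3 dpi, 3.86 in 5 dpi-F and 6.004 in 5 dpi-M, a control level 2.22-fold above the nearest section. It was the only member 2-fold lower in every infarcted section on this scale, where 0.15% of genes were. Kcnd2 was at 1.48 against 1.56, 1.22 and 1.17, so its gap in CPM was no longer seen. Kcnq1 stood on the other side, with 4.14 in the control against 9.34, 10.9 and 9.12, and it was 2-fold higher in every infarcted section, as were 76.1% of genes. Gja1 was at 20.4 in the control against 48.1, 62.3 and 38.7, at least 1.90-fold higher in each. Kcnj2 was at 1.03 against 1.35, 2.06 and 1.17, Kcnh2 at 4.78 against 6.94, 6.82 and 7.40 and Kcna5 at 1.74 against 2.22, 3.49 and 3.31, so for these 3 genes the control was the lowest section. The 623 spots of 5 dpi-M that carry no tissue mark were left out, and there no member exceeded its control level in CPM, while Kcnj2, Kcnq1, Kcnh2, Kcna5 and Gja1 exceeded it per 10000 cardiomyocyte UMIs, at 2.65, 10.9, 12.5, 7.43 and 71.9.

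To compare muscle with muscle, the infarcted sections were divided into zones by the share of the 12 cardiomyocyte genes. The infarct zone (IZ) joined neighbouring spots whose share was below 0.5 of the section's 90th percentile, border zone 2 (BZ2) was the tissue up to 2 spot steps from it, border zone 1 (BZ1) up to 4 steps, and the remote zone (RZ) farther out. The RZ held 380, 200 and 533 spots and the IZ 882, 1061 and 684 spots at 3 dpi, in 5 dpi-F and in 5 dpi-M. In the RZ, where the summed cardiomyocyte genes reached 81801 to 98085 CPM against 101340 in the same class of control spots, Kcnip2 was still below the control. It was at 93.3 CPM at 3 dpi, 43.0 in 5 dpi-F and 57.6 in 5 dpi-M, against 144, so that the control was 1.54-fold (1.27 to 1.89), 3.35-fold (2.39 to 4.84) and 2.50-fold (2.08 to 3.03) higher. Per 10000 cardiomyocyte UMIs the RZ held 9.52, 4.95 and 7.04 Kcnip2 UMIs against 14.2. All 3 remote zones were below the control on both scales.

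Kcnq1 and Gja1 stood on the other side of the control in the RZ. Kcnq1 was at 70.0, 64.5 and 68.9 CPM against 42.0, which is 1.67-fold (1.28 to 2.17), 1.54-fold (1.11 to 2.11) and 1.64-fold (1.31 to 2.05) higher. Gja1 was at 274, 282 and 227 CPM against 207, or 1.33-fold (1.17 to 1.504), 1.36-fold (1.17 to 1.58) and 1.10-fold (0.983 to 1.23), the last of which is within counting error. Kcnd2 was at 21.1, 13.1 and 11.3 CPM against 15.0, Kcnj2 at 12.0, 11.9 and 5.64 against 10.4 and Kcnh2 at 59.5, 44.2 and 55.2 against 48.4, with the control inside each range. Kcna5 was at 11.3, 15.5 and 13.7 CPM against 17.6, each interval of the ratio including no difference. At the 2-fold limit 0 of the members were lower in every RZ, where 0.245% of 8581 genes were, and 0 were higher, where 4.36% were. Per cardiomyocyte UMI 0 were lower and 0 higher, where 0.14% and 5.78% of genes were. On that scale Kcnq1, Gja1 and Kcnh2 were higher in each RZ than in the control (7.14 to 8.42 against 4.14, 27.7 to 32.4 against 20.4 and 5.08 to 6.75 against 4.75), although the intervals of the Kcnh2 ratio included no difference at 3 dpi and in 5 dpi-F, and the control lay inside the range of Kcnd2, Kcnj2 and Kcna5. Without the 3 dpi section 1 member, Kcnip2, was lower by 2-fold in CPM, where 0.991% of genes were, and the same member per cardiomyocyte UMI, where 0.42% were. These comparisons with 1 control heart were not tested. Other markers moved with them. The fibroblast markers (7 genes) went from 1058 summed CPM in the control to 3138 to 4334 in the RZ, the macrophage markers (8 genes) from 770 to 1267 to 1673, and the markers of stressed border muscle (8 genes, among them Nppa, Nppb and Ankrd1) from 2263 to 9465 to 16919. Their part in these values was not tested.

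Within the RZ, Kcnip2 at 3 dpi was at 78.6 CPM 5 to 8 steps from the infarct, 99.3 at 9 to 12 steps and 133 beyond 12 steps. 5 dpi-F gave 30.6 and 64.2 CPM in the first 2 of these rings and then 57.2 from only 2 UMIs. 5 dpi-M gave 52.5, 64.5 and 53.2 CPM, with no increase at the far ring. Gja1 stayed within 270 to 283, 264 to 291 and 213 to 237 CPM over the same rings. These rings were drawn after the values had been seen and carry no test.

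**Figure D1:**
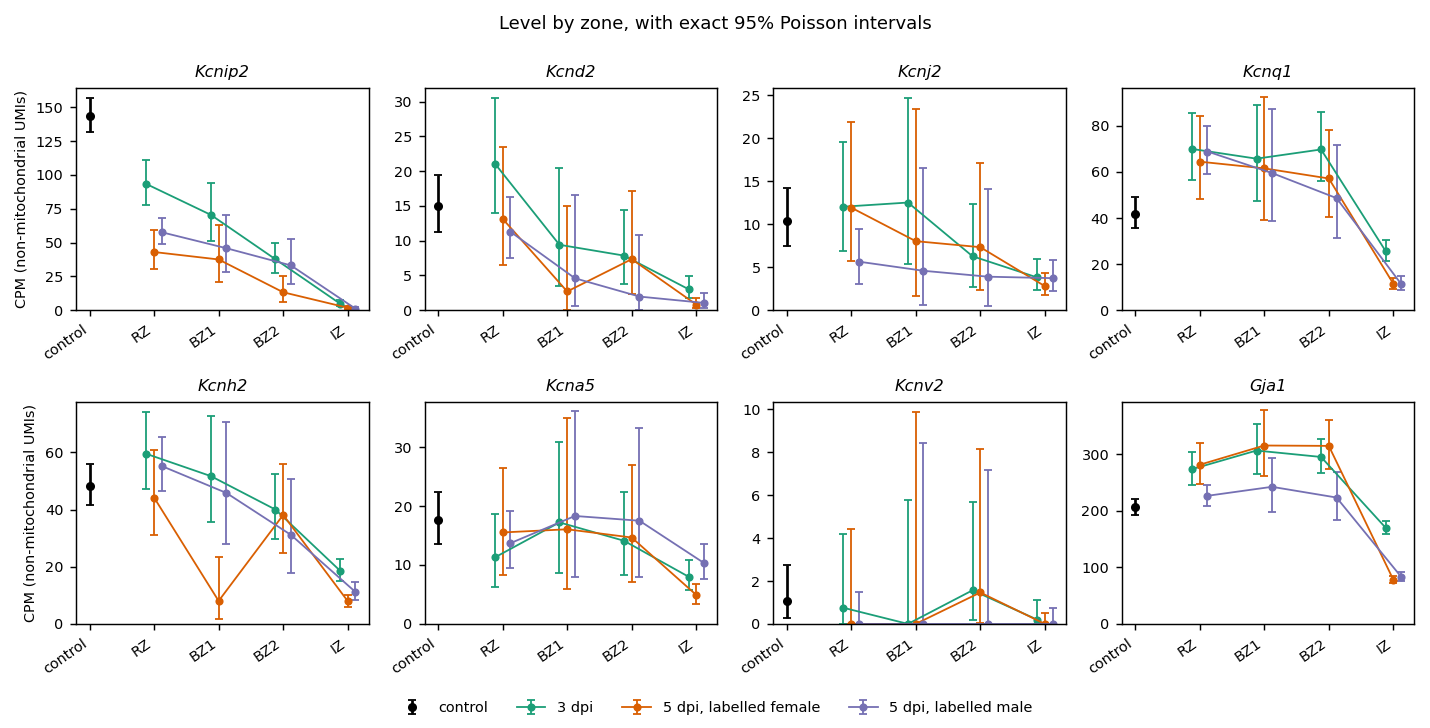
Level of each member in CPM of non-mitochondrial UMIs (vertical axis, linear from 0) in the control and, from left to right, in the RZ, BZ1, BZ2 and IZ of the 3 infarcted sections (coloured lines), with exact 95% Poisson intervals. Kcnip2 falls at every step from the RZ to the IZ in all 3 sections, whereas Gja1 is at 224 to 316 CPM from BZ2 to BZ1 and at 78.1 to 170 CPM in the IZ.

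Every member that could be tested was lower in the IZ than in the RZ. Kcnip2 was at 93.3 CPM in the RZ, 70.5 in BZ1, 37.6 in BZ2 and 4.81 in the IZ at 3 dpi. In 5 dpi-F the same zones gave 43.0, 37.5, 13.2 and 1.73 CPM, and in 5 dpi-M 57.6, 45.8, 33.1 and 1.03. In each section every step towards the infarct was lower than the one before, and the IZ values rest on 24, 13 and 5 UMIs. By edgeR's quasi-likelihood test with the section as a block, the IZ was lower than the RZ by a log2 fold change of -5.07 (SE 0.24, adjusted p = 1.93e-12), the most negative of the 7 members tested. All 7 were lower, and 27% of the 9444 genes tested were, while 26.8% were higher. Kcnv2, with 0 to 2 UMIs per zone, did not pass the filter on low counts.

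Kcnd2 was at 21.1, 13.1 and 11.3 CPM in the RZ of the 3 sections and at 3.01, 0.797 and 1.03 in the IZ, with no overlap. Its log2 fold change was -3.68 (SE 0.35, adjusted p = 2.34e-08). The 2 delayed rectifier channels were also lower. Kcnq1 went from 70.0, 64.5 and 68.9 CPM to 25.6, 11.4 and 11.4, a log2 fold change of -2.56 (SE 0.20, adjusted p = 8.04e-10). Kcnh2 went from 59.5, 44.2 and 55.2 CPM to 18.6, 7.97 and 11.2, a log2 fold change of -2.52 (SE 0.23, adjusted p = 9.15e-09). In BZ1 of 5 dpi-F Kcnh2 was at 8.03 CPM from 3 UMIs, below its BZ2 level of 38.1, whereas the BZ1 levels of the other sections were 51.7 and 45.8.

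Kcnj2, Gja1 and Kcna5 were lower in the infarct as well. Kcnj2 went from 12.0, 11.9 and 5.64 CPM in the RZ to 3.81, 2.79 and 3.72 in the IZ, a log2 fold change of -1.84 (SE 0.35, adjusted p = 0.000155). Gja1 went from 274, 282 and 227 CPM to 170, 78.1 and 83.5, a log2 fold change of -1.71 (SE 0.18, adjusted p = 7.44e-08). Kcna5 went from 11.3, 15.5 and 13.7 CPM to 8.01, 4.92 and 10.3, a log2 fold change of -1.18 (SE 0.27, adjusted p = 0.000862), and the highest IZ value was close to the lowest RZ value. The 95% interval of Kcna5 (-1.74 to -0.62) does not meet that of Kcnip2 (-5.57 to -4.57), although the difference between genes was not itself tested. TMM scaling moved these log2 values by -0.42 against plain CPM, and all 7 stayed lower without it.

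The other cell types of the wound changed in the same comparison. The summed fibroblast markers went from 3213, 4334 and 3138 CPM in the RZ to 13137, 24263 and 21827 in the IZ, with 6 of 7 genes higher in all 3 sections. The macrophage markers went from 1378, 1673 and 1267 to 6351, 10081 and 9505 CPM, with 8 of 8 genes higher in all sections. The endothelial markers went from 1727, 2339 and 3426 to 1578, 940 and 1249 CPM, with 0 of 6 genes higher in all sections. The mural markers went from 610, 870 and 616 to 965, 2056 and 1749 CPM, with 2 of 5 genes higher in all sections, and the neutrophil markers from 21.8, 79.998 and 25.0 to 253, 245 and 223, with 3 of 4. The markers of stressed border muscle went from 9465, 16919 and 13598 to 19321, 11711 and 17248 CPM, with 1 of 8 genes higher in all sections. The atrial markers went from 2.26, 8.36 and 8.86 to 6.21, 14.35 and 17.4 CPM, with 2 of 3 genes higher in all sections. The part of these cells in the members' values was not tested.

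In BZ2, the muscle next to the infarct, 2 members were lower than in the RZ in CPM and the rest were not called. Kcnip2 at 37.6, 13.2 and 33.1 CPM was below the lowest RZ value of 43.0 in every section, with a log2 fold change of -1.42 (SE 0.24, adjusted p = 0.000600). Kcnd2 was at 7.84, 7.33 and 1.95 CPM, from 10, 5 and 1 UMIs, against 11.3 to 21.1 in the RZ, a log2 fold change of -1.58 (SE 0.42, adjusted p = 0.0202). At this step 4.8% of genes were lower and 4.21% higher. The Kcnd2 call was lost without 5 dpi-F (adjusted p = 0.0710) and without 5 dpi-M (0.145), and without the 3 dpi section the gene did not pass the count filter. Without the section as a block neither gene was called (0.107 for Kcnip2 and 0.188 for Kcnd2). With the zone limit at 0.3 in place of 0.5, 5 members were lower in BZ2, the added ones being Kcnj2, Kcnq1 and Kcnh2, where 8.4% of genes were lower.

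Gja1 at 296, 315 and 224 CPM in BZ2 gave a log2 fold change of -0.07 (95% interval -0.45 to 0.31, adjusted p = 0.885 by edgeR), which leaves out a fall as large as that of Kcnip2. Kcna5 at 14.1, 14.7 and 17.5 CPM gave 0.09 (-0.58 to 0.77, adjusted p = 0.926). Kcnq1 was at 69.8, 57.2 and 48.6 CPM (-0.40, -0.84 to 0.05), Kcnh2 at 40.0, 38.1 and 31.1 CPM (-0.71, -1.26 to -0.17, adjusted p = 0.102) and Kcnj2 at 6.27, 7.33 and 3.89 CPM (-0.85, -1.80 to 0.10). The Kcnj2 interval reaches a fall of the size seen for Kcnip2, so the depth of 2 to 8 UMIs per BZ2 cannot separate them. Markers of stressed border muscle were at 27979, 45303 and 42137 summed CPM in BZ2 and at 9465, 16919 and 13598 in the RZ. The fibroblast markers were at 7384, 11221 and 8541 CPM against 3213, 4334 and 3138, and the 12 cardiomyocyte genes at 67262, 54294 and 59900 against 98085, 86902 and 81801. The macrophage markers were at 2378, 2763 and 1936 CPM against 1378, 1673 and 1267, with 6 of 8 genes higher in all sections. Their part in the members' values in BZ2 was not tested.

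**Figure D2:**
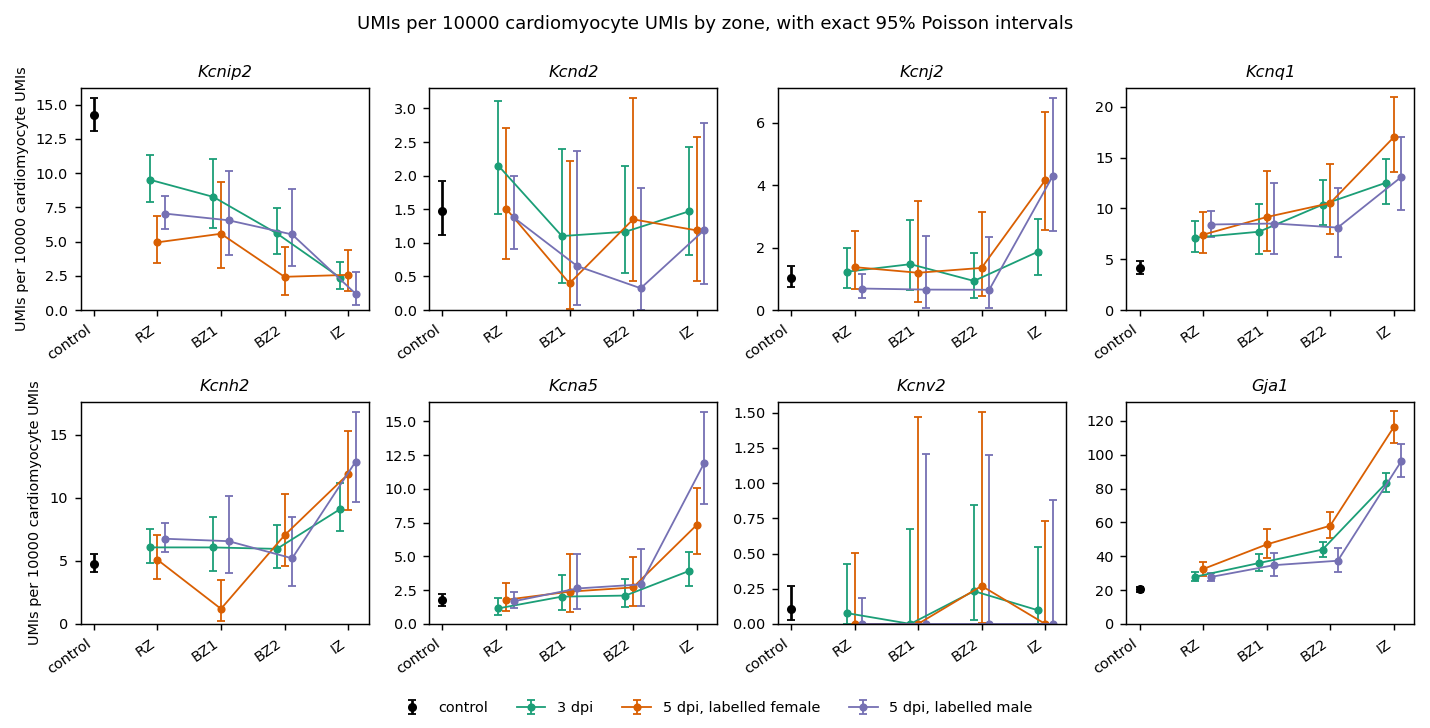
UMIs of each member per 10000 UMIs of the 12 cardiomyocyte genes (vertical axis, linear from 0) in the control and in the zones of the 3 infarcted sections (coloured lines), with exact 95% Poisson intervals. Kcnip2 goes from 4.95 to 9.52 in the RZ to 1.19 to 2.57 in the IZ, while Gja1 goes from 27.7 to 32.4 up to 83.3 to 116.

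Set against the muscle genes, the members parted. Kcnip2 was at 9.52, 4.95 and 7.04 UMIs per 10000 cardiomyocyte UMIs in the RZ and at 2.35, 2.57 and 1.19 in the IZ, with no overlap. Its log2 fold change in the fit with cardiomyocyte UMIs as library size was -1.76 (SE 0.44, adjusted p = 5.77e-05 by edgeR). Kcnip2 therefore fell by more than the sum of the muscle genes did. The fit does not compare it with each muscle gene. Only 0.349% of genes (33 of 9444) were lower on this scale and 97.7% were higher. The denominator, muscle RNA, is by the definition of the zones scarce in the IZ. Kcnd2 was at 2.15, 1.51 and 1.38 in the RZ and 1.47, 1.19 and 1.19 in the IZ, a log2 fold change of -0.41 (95% interval -1.38 to 0.55, adjusted p = 0.405).

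The other 5 tested members were higher per cardiomyocyte UMI, as most genes were. Kcnq1 went from 7.14, 7.42 and 8.42 to 12.5, 17.0 and 13.1 (log2 fold change 0.87, SE 0.36, adjusted p = 0.0171) and Kcnh2 from 6.06, 5.08 and 6.75 to 9.11, 11.9 and 12.9 (0.92, SE 0.38, adjusted p = 0.0159). Kcnj2 went from 1.23, 1.37 and 0.690 to 1.86, 4.15 and 4.29 (1.61, SE 0.46, adjusted p = 0.000523). Gja1 went from 27.9, 32.4 and 27.7 to 83.3, 116 and 96.2 (1.74, SE 0.32, adjusted p = 4.03e-08) and Kcna5 from 1.15, 1.79 and 1.67 to 3.92, 7.32 and 11.9 (2.24, SE 0.43, adjusted p = 2.65e-07). The median over the members was 0.92 against 3.55 over all genes tested, so all 5 rose by less than the typical gene. Without 5 dpi-F the Kcnq1 and Kcnh2 calls were lost (adjusted p = 0.147 and 0.133), and without 5 dpi-M those of Kcnj2, Kcnq1 and Kcnh2 (0.0834, 0.0843 and 0.124), which left 3 and 2 members higher. Without the 3 dpi section Kcnj2 was not tested and 4 were higher. Zones and denominator share the 12 genes, and with separate genes for each, 3 members were higher (Kcnq1, Kcna5 and Gja1), as were 95.8% of genes, Kcnh2 was not called (adjusted p = 0.226) and Kcnj2 was not tested. Without the section as a block 3 were higher (Kcnj2, Kcna5 and Gja1), as were 97% of genes.

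In BZ2 per cardiomyocyte UMI, edgeR called 0 members, where 0.0847% of genes were lower and 24% higher, and at an unadjusted p under 0.05 there was 1. That member was Gja1, at 43.9, 58.0 and 37.4 UMIs per 10000 against 27.9, 32.4 and 27.7 in the RZ, higher in 3 of 3 sections (log2 fold change 0.64, 95% interval 0.03 to 1.26, adjusted p = 0.0997). It was called without the 3 dpi section (adjusted p = 0.00843). Kcnip2 was at 5.595, 2.43 and 5.52 against 9.52, 4.95 and 7.04, lower in 3 of 3 sections (-0.68, -1.48 to 0.13, adjusted p = 0.178). Kcnd2 gave -0.81 (-1.87 to 0.24, adjusted p = 0.213), and its fall in CPM at the border was therefore not separated from that of the muscle genes. Kcna5 was at 2.10, 2.70 and 2.92 against 1.15, 1.79 and 1.67, higher in 3 of 3 sections (0.79, -0.14 to 1.72, adjusted p = 0.175). Kcnq1 gave 0.34 (-0.39 to 1.07), Kcnh2 0.05 (-0.73 to 0.82) and Kcnj2 -0.12 (-1.21 to 0.98).

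**Figure D3:**
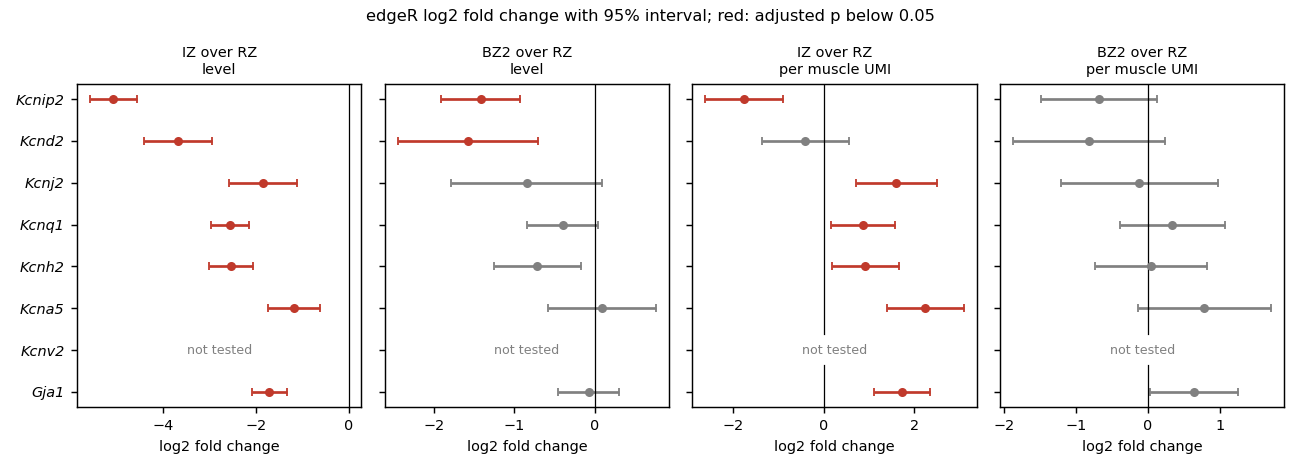
Log2 fold change of each member (rows) with its 95% interval (bars) from edgeR, for IZ over RZ and BZ2 over RZ in CPM (left pair) and per cardiomyocyte UMI (right pair); each panel has its own horizontal axis and red marks an adjusted p below 0.05. Kcnip2 is the only member whose interval lies below 0 in 3 of the panels, at -5.07, -1.42 and -1.76.

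Spots were also ordered by muscle content, as the share of the 12 cardiomyocyte genes divided by the 90th percentile of its section. From the highest class (0.75 and over) to the lowest (under 0.1), the summed cardiomyocyte genes kept 5.13%, 2.15% and 2.47% of their CPM at 3 dpi, in 5 dpi-F and in 5 dpi-M. Kcnip2 kept 0.591% and 0.814% in the first 2 and had 0 UMIs in the lowest class of 5 dpi-M, where a count of 0 over 475 spots allows a level of up to 0.908 CPM (3 UMIs) against 62.1 CPM in the highest class. These shares rest on 1, 2 and 0 Kcnip2 UMIs in the lowest class, too few to rank the gene among the 12 single cardiomyocyte genes.

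Kcnd2 had 0 UMIs in the lowest class at 3 dpi and kept 2.91% and 7.69% at 5 dpi, from 2 and 3 UMIs. Kcnq1 kept 13.9%, 8.57% and 7.09% and Kcnh2 13.4%, 9.25% and 8.65%, next to the highest of the cardiomyocyte genes, which reached 12.1%, 7.71% and 8.64%. Only Kcnq1 in 5 dpi-M was below that highest value. Gja1 kept 30.5%, 17.4% and 19.7%, above all 12 cardiomyocyte genes in each section. Kcnj2 kept 21.2%, 21.7% and 60.6% and Kcna5 62.0%, 32.3% and 98.9%, so in 5 dpi-M the Kcna5 level in spots with almost no muscle RNA was 12.1 CPM against 12.2 in the fullest muscle.

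The fit over these classes per cardiomyocyte UMI (10467 genes, 0.22% lower and 98.8% higher) tested 6 members, and called 1 lower and 4 higher. Kcnip2 was lower (log2 fold change -2.64, SE 0.71, adjusted p = 0.00021). Kcna5 (4.38, SE 0.41), Gja1 (2.88, SE 0.30), Kcnh2 (1.75, SE 0.37) and Kcnq1 (1.66, SE 0.35) were higher, against a median of 5.64 over all genes, and Kcnd2 was not called (0.39, 95% interval -1.17 to 1.94). Kcnj2 did not pass the filter here, with 2 to 23 UMIs per class. Between the 2 classes richest in muscle, Kcnip2 went from 9.53 to 5.34 UMIs per 10000 cardiomyocyte UMIs at 3 dpi, from 5.16 to 2.36 in 5 dpi-F and from 7.23 to 5.59 in 5 dpi-M. In the middle class, whose share lies under the limit that defines the IZ, it was at 2.71, 2.33 and 2.20, in 5 dpi-F close to the class above.

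**Figure D4:**
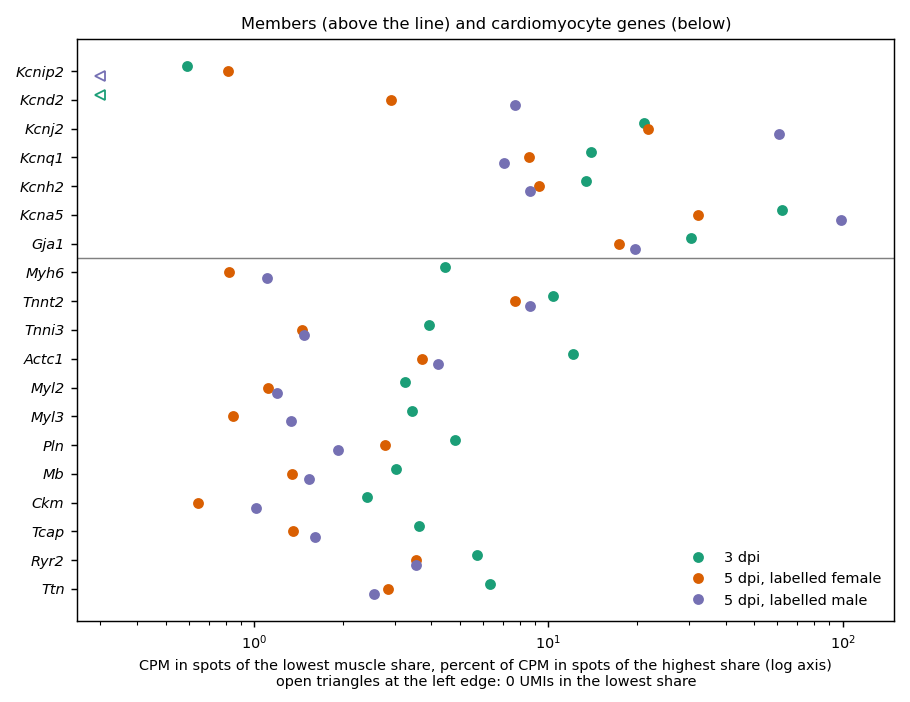
CPM in spots of the lowest class of muscle share as a percent of CPM in the highest class (horizontal log axis), for 7 members above the line and the 12 cardiomyocyte genes below it, with 1 point per infarcted section; open triangles mark 0 UMIs. Kcnip2 is at 0.591% and 0.814% in 2 sections and at 0 UMIs in 5 dpi-M, and Gja1 (17.4% to 30.5%) and Kcna5 (32.3% to 98.9%) lie right of the cardiomyocyte genes of the same section.

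The infarct zone itself was divided at the median level of marker genes in each section, into spots rich and spots poor in those markers, to see with which cells the remaining channel transcripts lay. Kcnq1, Kcnh2, Kcna5 and Gja1 had enough UMIs to be tested. In the muscle-rich spots Gja1 was at 239, 110 and 123 CPM against 116, 46.3 and 44.3 in the poor spots (log2 fold change 1.37, SE 0.10, adjusted p = 1.14e-06). Kcnq1 was at 40.9, 19.8 and 19.8 against 13.6, 3.17 and 2.90 (2.25, SE 0.23, adjusted p = 1.02e-05) and Kcnh2 at 28.2, 13.1 and 19.4 against 11.1, 2.91 and 2.90 (2.02, SE 0.25, adjusted p = 4.8e-05). These 3 members were higher, as were 15.8% of genes (12.2% were lower). The cardiomyocyte genes, by which these spots were divided, summed to 35220, 12868 and 16332 CPM in the rich spots. In the poor spots they summed to 8826, 634 and 996 CPM, a wider gap in every section than that of the 3 members. Per unit of muscle RNA these members were therefore not higher in the rich spots. Kcna5 was at 8.64, 5.08 and 7.43 CPM in the rich spots and 7.52, 4.76 and 13.3 in the poor spots (-0.09, 95% interval -0.71 to 0.53, adjusted p = 0.849).

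Division by macrophage markers gave the mirror image for the same genes. Gja1 was at 125, 45.1 and 30.1 CPM in the macrophage-rich spots and 217, 115 and 137 in the poor spots (log2 fold change -1.38, SE 0.16, adjusted p = 3.23e-05), and Kcnq1 at 17.3, 4.81 and 3.71 against 34.2, 18.7 and 19.0 CPM (-1.60, SE 0.22, adjusted p = 0.000136). Kcnh2 was at 15.0, 2.28 and 5.36 against 22.4, 14.3 and 17.0 CPM (-1.43, SE 0.29, adjusted p = 0.00231). These 3 were lower, as were 12.3% of genes, while 11.3% were higher. The cardiomyocyte genes summed to 11905, 2254 and 2420 CPM in the macrophage-rich spots and 29306, 11655 and 14953 in the poor spots, so muscle RNA was lower where macrophage RNA was higher, and the part of each was not tested. Kcna5 was at 8.27, 6.58 and 12.0 CPM in the rich spots against 7.75, 3.08 and 8.70, higher in 3 of 3 sections but not called (0.47, -0.12 to 1.05, adjusted p = 0.254). None of the 3 calls in either division held without the section as a block.

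By fibroblast markers only Gja1 was called, lower in the rich spots (164, 63.1 and 65.9 against 177, 93.1 and 99.1 CPM, log2 fold change -0.39, SE 0.10, adjusted p = 0.0277), with 2.67% of genes lower and 3.39% higher. That call was lost without 5 dpi-F (adjusted p = 0.271) and without 5 dpi-M (0.268), and the cardiomyocyte genes were also lower in the fibroblast-rich spots, at 18921, 4967 and 6065 against 22154, 8466 and 10994 summed CPM. Kcnq1 gave -0.27 (-0.65 to 0.10), Kcnh2 -0.08 (-0.56 to 0.39) and Kcna5 0.18 (-0.47 to 0.83), none of them called. By endothelial markers edgeR called 0 members (0.11% of genes lower, 0.513% higher) and 1 had an unadjusted p under 0.05, which was Kcna5 at 10.96, 5.41 and 12.5 CPM in the rich spots against 4.92, 4.44 and 8.17, higher in 3 of 3 sections (0.67, 0.10 to 1.23, adjusted p = 0.459). Kcnq1 gave 0.11 (-0.28 to 0.49), Kcnh2 -0.32 (-0.80 to 0.17) and Gja1 0.09 (-0.13 to 0.32).

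**Figure D5:**
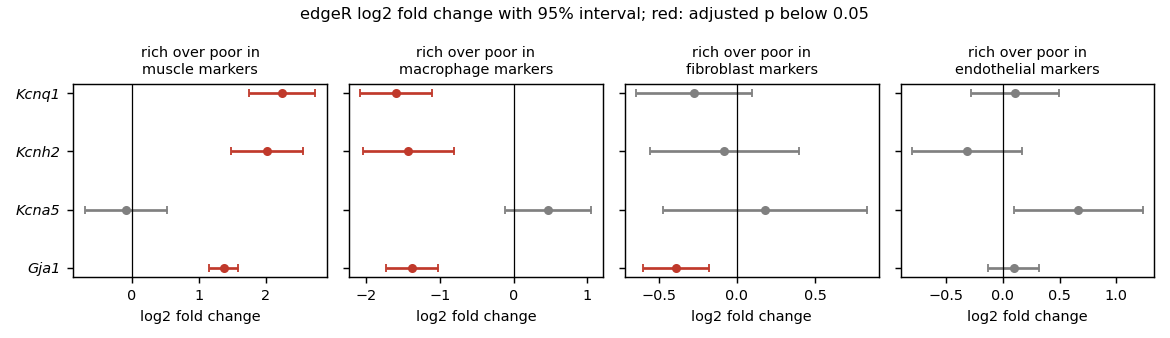
Log2 fold change with 95% interval from edgeR for the 4 members tested within the IZ, between spots rich and spots poor in muscle, macrophage, fibroblast and endothelial markers (panels, each with its own horizontal axis); red marks an adjusted p below 0.05. In CPM, Kcnq1, Kcnh2 and Gja1 are higher in the muscle-rich spots (2.25, 2.02 and 1.37) and Kcna5 is not called (-0.09).

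The depth of the wall was looked at in muscle outside the infarct and its borders, since Kv4 expression is known to be graded across the ventricle. The cavity could not be recognised in all sections, so the outer 2 rings of spots were set against the deeper muscle. Kcnip2 was at 135, 97.8, 50.4 and 34.9 CPM in the outer layer and 141, 95.7, 38.3 and 63.1 deeper, in the control, at 3 dpi and in 5 dpi-F and 5 dpi-M (log2 fold change -0.09, 95% interval -0.39 to 0.22, adjusted p = 0.953 by edgeR). Of the 4 members tested edgeR called 0, and 0 had an unadjusted p under 0.05, with 0.0495% of genes lower and 0.099% higher in the outer layer. Kcnq1 gave -0.07 (-0.42 to 0.29), Kcnh2 0.17 (-0.22 to 0.56) and Gja1 0.08 (-0.13 to 0.29). Kcnd2 had too few UMIs for the fit and was at 24.1, 13.6, 25.2 and 12.7 CPM in the outer layer against 8.90, 15.3, 10.5 and 9.93 deeper, higher outside in 3 of 4 sections. In the control this difference rests on 25 and 20 UMIs.

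The other genes of cardiac excitation were counted from a list of 60, all of which were in the tables, by role. In the IZ 33 of the 38 tested were lower than in the RZ in CPM, where 27% of all genes were, and 2 were higher, where 26.8% were, with a median log2 fold change of -1.97 against 0.05 over all genes and -2.52 over the 7 members. All 6 tested genes of inward rectifier and ATP-sensitive channels were lower, among them Kcnj3, an acetylcholine-gated channel (-3.96, SE 0.40), and Kcnj11 and Abcc8, pore and sulfonylurea receptor of ATP-sensitive channels (-3.51, SE 0.25, and -3.59, SE 0.30). Klf15, a transcription factor that activates Kcnip2 in the mouse heart, was lower by a log2 value of -3.26 (SE 0.40, adjusted p = 7.47e-07 by edgeR). Kcne4 and Kcnab2, accessory subunits of Kv channels, were the 2 that were higher (1.70, SE 0.45, and 1.53, SE 0.33). Calcium channel genes (4 of 4 tested), exchangers and pumps (5 of 5) and gap junction and disc genes (9 of 11) were lower.

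Per cardiomyocyte UMI, 0 of the 38 genes were lower in the IZ and 31 were higher (median 1.497), where 0.349% of all genes were lower and 97.7% higher. Kcnip2 had a log2 value of -1.76 and was called lower on this scale, whereas Klf15 was not. In BZ2, 0 of the 38 were lower in CPM, where 4.8% of all genes were, and 1 was higher, Des, the intermediate filament desmin (0.63, SE 0.18, adjusted p = 0.0327). Per cardiomyocyte UMI 6 of the 38 were higher in BZ2, against 24% of all genes, among them Des (1.33), Atp1b1, the beta subunit of the sodium pump (1.12), and Gjc1, connexin 45 (1.07). Inside the IZ, Kcne1, the partner of KCNQ1, was the listed gene with the largest rise in the muscle-rich spots (3.20, SE 0.33) and the largest fall in the macrophage-rich spots (-2.52, SE 0.40).

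The genes whose pattern was most like that of each member over 13 units, the control section and the 12 zones of the infarcted sections, were sought among 5661 genes by Pearson's r of log2(CPM + 1). The units share hearts and muscle content, so r is a description. Kcnip2 went most closely with Phb (0.991), Cox7b (0.990) and Sdhb (0.989), which encode mitochondrial proteins, and Kcnd2 with Cox10 (0.962), Gatb and Fahd1. Kcnq1 went with Tnnc1 (0.985) and Actn2 (0.984), which encode sarcomere proteins, and Epn3 (0.976), and Gja1 with Klhl41 (0.984), Dmpk (0.979) and Mybpc3 (0.977). Kcnh2 went with Gpsm1 (0.945), Micos13 (0.937) and Hspa4l (0.932), Kcnj2 with Zfp106 (0.942), Cops6 (0.938) and Mgrn1 (0.925), and Kcna5 with Ly6c1 (0.923), a surface antigen of endothelial and myeloid cells, Ppp1r3c (0.918) and Id1 (0.915). For Kcnv2, at 0 to 2 UMIs in each zone, the likeness (0.811 with Ubqln4) has no reading.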

How the data were processed

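Raw UMI counts per gene and spot were deposited by the authors without normalization, 1 table per section, made with Space Ranger 1.3.1 from an Ensembl-based mouse reference with a GFP sequence added. The labels name the build mm10 and the methods another one, so no gene positions are given except for the RefSeq promoter windows. Spots under tissue had been picked by hand by the authors. Spots below 500 UMIs or 250 genes, or above 50% mitochondrial UMIs, were removed, and mitochondrially encoded genes (13) were left out of sums and library sizes. Depth ranged from 3742105 to 9540940 UMIs per section, and intervals for counts are exact 95% Poisson intervals, which cover counting error only.

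UMIs were summed per section and zone. Low spots in patches of under 10 were left out of the zones. The 12 sums of the 3 infarcted sections were tested in R 4.3.3 by the quasi-likelihood test of edgeR 4.0.16 and limma 3.58.1, after TMM scaling and edgeR's default count filter, with the section as a block and with Benjamini-Hochberg adjustment over all genes tested, at 0.05. For values per cardiomyocyte UMI, the library size was set to the UMIs of the 12 genes without TMM. Zones and classes were drawn from those same genes, so a fit with separate parts of the list was among the alternatives. SEs were taken as the log2 fold change over the square root of F. The hearts are the replicates, and p-values rest on 3 hearts, 2 of them in the same group. In the fits per cardiomyocyte UMI the spread was almost wholly pooled over genes. The p-values and intervals of those fits therefore hold little of a gene's own spread between hearts. Simulated data were made only for the IZ against RZ fit in CPM, with as many genes raised as lowered and fewer changed than the data called. There the test recovered changed genes as built, and the other fits were not simulated. Sums and figures were made with NumPy 2.4.6, pandas 2.3.3, SciPy 1.17.1 and matplotlib 3.10.9 in Python 3.11.15.

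All members with enough UMIs for a comparison were named in it. Of the list of 60 other genes, those with the largest changes past the threshold and 1 direction in every section were named, up to 4 each way, and for likeness up to 3 genes per member with a mean of at least 20 CPM. The members, the lists and the tests were chosen with earlier results of these data known. Alternatives were other scalings, DESeq2 1.42.0, no count filter, no block, a zone limit of 0.3, all tissue spots, other muscle denominators and leaving out each section. The divisions of the infarct, the rings of the RZ, the outer layer against deeper muscle and the comparison of days were added after seeing the data. Image files were not used.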

Additional observations from a re-analysis of the deposited data

Results flagged for a closer look

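The interaction term of edgeR for the change from the RZ to the IZ, 5 dpi minus 3 dpi, was -0.948 for Gja1 and -1.10 for Kcnq1 on the log2 scale in CPM (adjusted p = 0.0263 and 0.0495), among 282 of 9444 genes past the threshold. The term sets 2 hearts against 1 and takes the single heart at 3 dpi to vary like those at 5 dpi, so no difference between the days is read from it. Gja1 was at 274 CPM in the RZ and 170 in the IZ at 3 dpi, 282 and 78.1 in 5 dpi-F and 227 and 83.5 in 5 dpi-M. Kcnq1 was at 70.0 and 25.6 CPM at 3 dpi, 64.5 and 11.4 in 5 dpi-F and 68.9 and 11.4 in 5 dpi-M. Per cardiomyocyte UMI neither term passed (0.24 and 0.08, adjusted p = 0.506 and 0.860), where 4835 of 9444 genes passed. The spread between hearts at 3 dpi is unknown, and the IZ of that heart held more muscle RNA, with the 12 cardiomyocyte genes at 20457 summed CPM against 6719 and 8676 at 5 dpi. The part of this in the terms was not tested. No group held enough sections for a test of outlying samples.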

How the results depend on the processing

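All tested members stayed lower in the IZ in CPM under every alternative run, with Kcnd2 and Kcnj2 not passing the count filter without the 3 dpi section, and the fall of Kcnip2 per cardiomyocyte UMI in the IZ and in the lowest class held under every alternative run. The count of members higher in the IZ per cardiomyocyte UMI, 5, became 3 with zones and denominator from separate genes, 3 without the block and 2 to 4 when a section was left out. The count lower in BZ2 in CPM, 2, became 1 by DESeq2, which gave no adjusted p for Kcnd2 and Kcnj2, 0 without the block, 5 at the zone limit of 0.3, and 1 whichever section was left out. Per cardiomyocyte UMI in BZ2, the limit of 0.3 gave 1 lower (Kcnip2) and 1 higher (Gja1) in place of 0, and leaving out a section gave 0 to 1 higher. Without the block, members called between rich and poor spots of the IZ became 0 by macrophage, fibroblast and muscle markers, and the count by fibroblast markers, 1, was 0 to 1 without single sections. With no count filter 5 members were higher in the muscle-rich spots. Apart from the shares given with the results above, the share of all genes was not counted under these alternatives. These counts therefore show only how the main counts of members move.

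Against the control, 2 members lower by 2-fold became 1 per cardiomyocyte UMI, 1 with mitochondrially encoded UMIs in the total, 4 at 1.5-fold and 4 with TMM scaling, and 0 higher became 1 per cardiomyocyte UMI, both counts per cardiomyocyte UMI being the same without the 3 dpi section. For the RZ, 1.5-fold gave 1 lower (Kcnip2) and 1 higher (Kcnq1), leaving out single sections 0 to 1 lower, and leaving out the 3 dpi section per cardiomyocyte UMI, chosen after seeing the data, 1 lower. The share of all genes was not counted at 1.5-fold, with mitochondrially encoded UMIs in the total or with TMM scaling. These counts therefore show only how the main counts move.

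Directions turned only for values that were not called. In BZ2 in CPM, Gja1 turned without scaling factors (0.082) and Kcna5 without the block (-0.0023), at the limit of 0.3 (-0.56) and without single sections (-0.030 to 0.17). Per cardiomyocyte UMI in BZ2, Kcnh2 turned with separate genes (-0.18), with all tissue spots (-0.0054) and without single sections (-0.17 to 0.22). Kcnd2 turned in the IZ at the limit of 0.3 (0.0041) and in the lowest class with spots classed by rank (-0.89), with separate genes (-0.32) and without single sections (-0.51 to 1.02). In the outer layer Kcnq1 turned with all tissue spots (0.0084) and Kcnip2 without the block (0.030) and without single sections (-0.19 to 0.023). In the divisions of the IZ the ranges without single sections were -0.16 to 0.72 for Kcna5 and -0.44 to 0.14 for Kcnh2 by fibroblast markers, -0.066 to 0.35 for Kcnq1 and -0.071 to 0.19 for Gja1 by endothelial markers, and -0.33 to 0.30 for Kcna5 by muscle markers. The cause of these changes was not tested.

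Between hearts of different groups, no paired analysis was possible because the groups share only 1 replicate number, and the pairing used was that of zones within a section. The planned test of outer against inner wall could not be made, since no inner background was enclosed in the control and 3 dpi sections. The control and 3 dpi groups have 1 heart each, Kcnd2 rests on few UMIs outside the RZ and Kcnj2 in every zone, and Kcnv2 had too few anywhere, so differences in these genes of the size of their intervals were not detectable at this depth.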
